A study of Homo sapiens with 8 samples.

Results

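SPEN, RBM15 and RBM15B are the human genes of the split ends family, whose proteins join RNA recognition motifs to a C-terminal SPOC domain. Their members here were the distinct strand-specific positions of the deposited YTHDF2 site list that lay inside the GRCh38 span of each gene, on that gene's strand. The rule found 85 of the 37613 positions in the list, with 44 in SPEN, 18 in RBM15 and 23 in RBM15B. The members were chosen by their presence in this list, a measured value, so their numbers and scores are described with no test.

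YTHDF2 is a cytoplasmic protein that binds N6-methyladenosine (m6A) in mRNA and recruits decay factors. RBM15 and RBM15B are RNA-binding adaptors of the METTL3-METTL14 methyltransferase complex, which makes m6A, and they help place it on target transcripts such as the long noncoding RNA XIST. SPEN, also called SHARP or MINT, is a very large transcriptional repressor. Its SPOC domain recruits NCoR-type corepressors with HDAC3, and it acts in XIST-mediated gene silencing and in the repression of Notch target genes. As background on gene structure, most of the SPEN protein is encoded by a very large internal exon, most of the RBM15 protein by its first exon, and RBM15B is intronless. Exon boundaries were not used here, so no site was placed in an exon, intron or untranslated region.

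The study mapped YTHDF2 contacts by iCLIP2, in which ultraviolet light (254 nm) crosslinks protein to RNA and truncated cDNAs mark the crosslinked base, in HEK293T, an established human embryonic kidney line labelled wild type. It has 8 libraries. In 4 of them the cells had 12 h of the METTL3 inhibitor STM2457 (20 µM, in 0.2% DMSO), and in the other 4 they had 12 h of 0.2% DMSO alone. The series asks which contacts of YTHDF2 need m6A. The deposited list has no value or label for any library, and which libraries it draws on is not stated. The treatments were therefore not compared, the depth behind a site and the spread between replicates are unknown, and every value below is a single value without a replicate check.

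Each row of the list gives a position of 1 nt, a strand and the authors' score, a positive number on an unstated scale. The score served only to rank sites within the list. Over all positions the median score was 8.67, with quartiles of 3.75 and 20.8 and a maximum of 708. In row order the list has a shorter part of 8935 rows and a longer part of 34243 rows, and 5565 positions stand in both with a score in each. The higher score was used for these. Which libraries each part holds is not labelled. Of the 6 haematopoietic marker genes checked, 0 had a site, and of 4 epithelial or embryonic kidney genes, VIM had 7 sites and KRT8, KRT18 and PAX2 had 0. A gene without a site can still be expressed, so these counts do not settle the cell type.

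The 44 SPEN sites lay in 4 groups, parted by gaps of over 1.5 kb, a distance chosen after the positions were seen. The first 25.2 kb of the 92.8 kb gene held no site. A group of 5 sites followed between 15872896 and 15874015 on chromosome 1 (GRCh38, plus strand), and 3 more lay within 0.118 kb between 15876286 and 15876403. The next 51.8 kb held no site. Of the 960 genes with 10 or more sites, 151, or 15.7%, had a gap of over 50 kb between neighbouring sites. After the SPEN gap came 32 sites, 72.7% of the total, within 7.88 kb from 15928186 to 15936067. That stretch had 4.06 sites per kb. Over the genes with 10 or more sites, 81% of sites lay in the densest 10 kb of their gene. The last 4 sites lay from 15939663 to 15940076, the final one 380 nt before the gene end. SPEN thus had 4 sites, or 9.09%, in its last 1 kb and 0 in its first 1 kb. Over all positions assigned to a gene the shares were 16.9% and 5.34%.

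**Figure D1:**
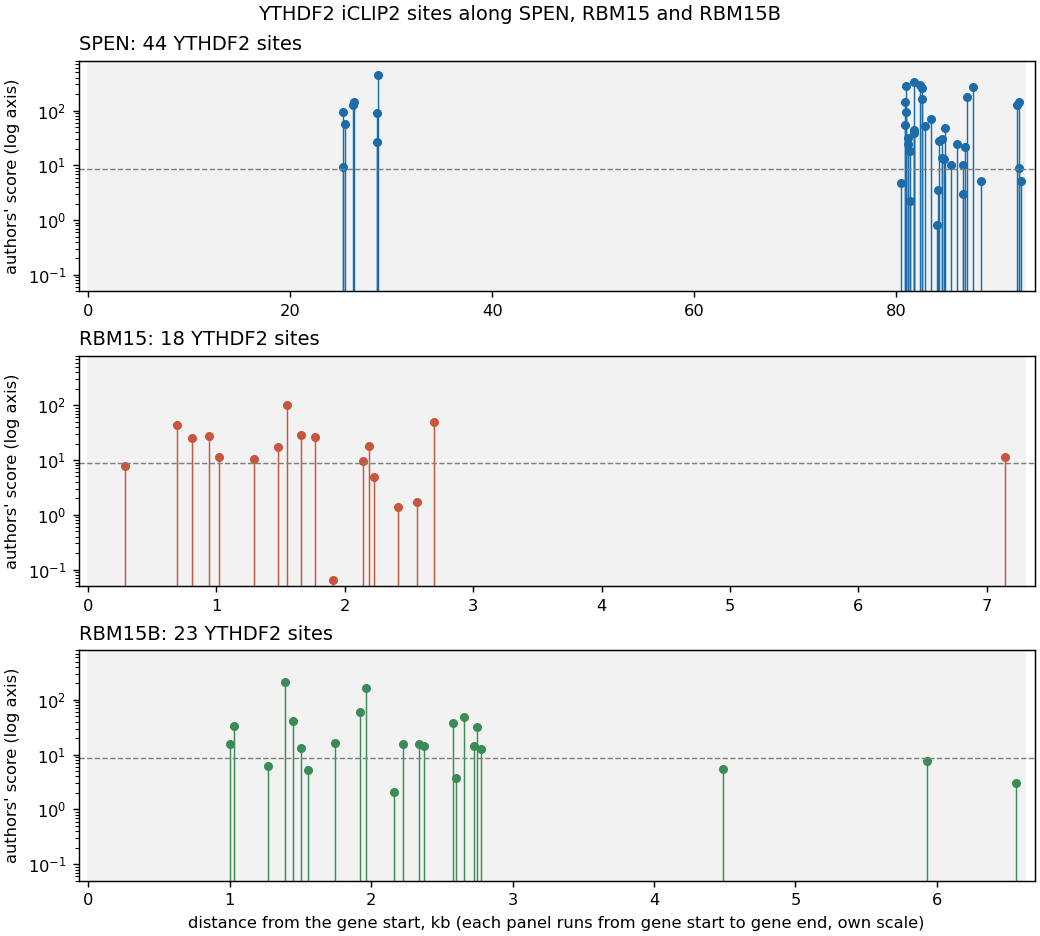
YTHDF2 sites along each gene, with the distance from the gene start in kb on the x axis (own scale per panel) and the authors' score on a log y axis. Each point is a site, the grey field is the gene span and the dashed line is the median score of all positions, 8.67. SPEN shows 2 small groups of sites between 25.2 and 28.7 kb, a site-free gap of 51.8 kb, a stretch of 32 sites and 4 sites near the gene end, while RBM15 and RBM15B have most sites within the first 2.8 kb.

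SPEN sites carried high scores. The median was 41.0, with quartiles of 12.6 and 132, and the 44 scores ran from 0.82 to 451. Of the 44, 37 ranked above the list's median, 84.1% against 50% of all positions by construction. A score of 100 or more was found at 13 SPEN sites, 29.5% (exact binomial 95% interval 16.8 to 45.2), against 3.24% of all positions. The interval covers counting error alone and treats sites as independent, which sites on 1 transcript are not. No other of the 7661 genes with a site had as many. SON, a nuclear speckle scaffold, came next with 11, and 789 genes had at least 1. With the lower score taken at positions in both parts, SPEN had 10 such sites and still stood alone at the top.

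The highest-scoring SPEN site was not in the long stretch. It was the last of the 3 tightly grouped ones upstream, at 15876403, with a score of 451 (percentile 99.9 of all positions). Its neighbours at 15876326 and 15876286 scored 91.5 and 26.9. The group of 5 before it held scores of 9.50, 92.2, 55.8, 129 and 141 in order along the gene. Both upstream groups thus sat high in the list, with medians of 92.2 and 91.5. The 4 sites at the gene end were mixed, at 124 and 144 for the first 2 and 8.89 and 5.22 for the last 2.

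Within the 7.88-kb stretch of SPEN, high scores lay towards both ends and not in the middle. Over successive 1-kb steps from its first site, the number of sites was 9, 4, 4, 3, 5, 1, 4 and 2. Sites with a score of 100 or more numbered 2 in each of the first 3 steps, 0 in the next 3, and 1 in each of the last 2. The steps with none topped out at 28.0, 47.5 and 24.2. The high ones in the first 3 steps were at 15928568 (141), 15928626 (277), 15929434 (332), 15930012 (288), 15930248 (259) and 15930262 (160). Those in the last 2 steps were at 15934666 (176) and 15935274 (271). The stretch began with a low site at 15928186 (4.72) and ended with another at 15936067 (5.27). Its lowest score, 0.82 at 15931716, fell in the middle steps and came from the shorter part of the list.

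**Figure D2:**
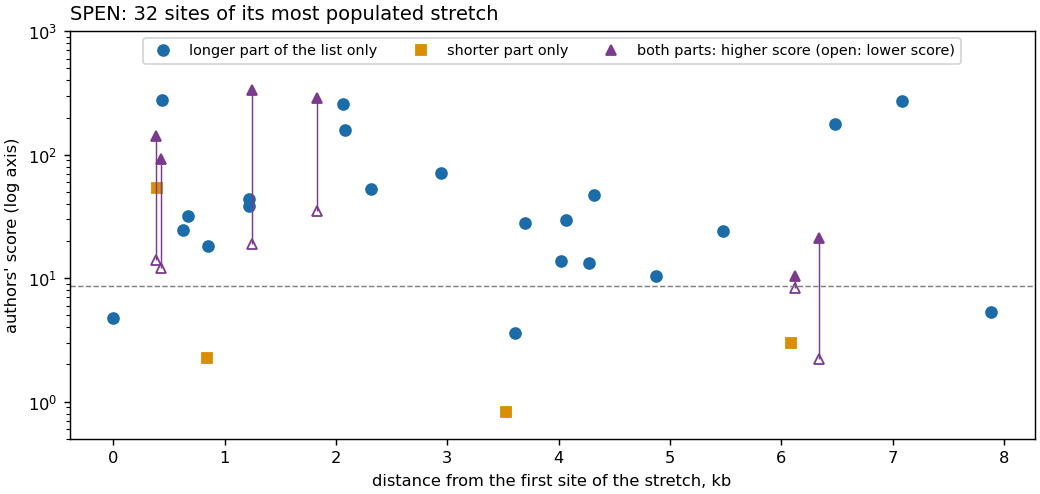
The 32 SPEN sites of the 7.88-kb stretch, by distance from its first site in kb (x axis) and the authors' score (log y axis); the dashed line is the median of all positions, 8.67. Marker shape gives the part of the list, and for the 6 positions in both parts a line joins the higher score (filled) to the lower one (open). Scores of 100 or more appear in the first 3 kb and after 6 kb.

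Sites in this stretch were unevenly spaced. Its 31 gaps had a median of 182 nt and ran from 4 to 793 nt, with 10 of 50 nt or less and 8 over 500 nt. The closest pair, at 15929404 and 15929408, scored 43.8 and 38.2. A spacing of 4 nt is the smallest in the whole list. Across SPEN 21 of 44 sites, 47.7% (exact binomial 95% interval 32.5 to 63.3), had a neighbour within 50 nt, against 29.7% of all positions. All positions include those in genes with few sites. Over the 960 genes with 10 or more sites the median share was 36.4%. The interval treats sites as independent, though 1 short gap gives a neighbour to both of its sites. The median score was 43.8 for the 21 SPEN sites with such a neighbour and 32.1 for the 23 without. This difference is small beside the range of either kind.

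All 6 SPEN positions that stand in both parts of the list lay in this stretch, and their 2 scores often stood far apart. At 15929434 the score was 19.0 in the shorter part and 332 in the longer one. At 15930012 the pair was 35.0 and 288, at 15928568 it was 14.1 and 141, and at 15934521 it was 2.21 and 21.3. At 15934312 both were near the list's median, 8.33 and 10.3. The position 15928611 went the other way, with 92.3 in the shorter part and 12.1 in the longer one. The longer part's score was the higher at 5 of these 6 positions. Over the 11 such positions of the 3 genes it was higher at 7, and over all 5565 positions in both parts at 70.0%. The median score of all rows was 5.52 in the shorter part and 9.06 in the longer one. A further 5 SPEN positions were in the shorter part alone, with a median score of 2.99, and 33 were in the longer part alone, with a median of 43.8.

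RBM15 had its sites close to the gene start. Of its 18 sites, 17 lay within 2.41 kb on chromosome 1 (plus strand), from 110339667 to 110342074, which is 0.29 to 2.70 kb into a gene of 7.30 kb. The next 4.45 kb held none, and the remaining site, at 110346520, lay 157 nt before the gene end. The first 1 kb of the gene held 4 of the 18 sites, and 1 more, 5.56%, lay in the last 1 kb. Over all positions assigned to a gene, 5.34% lay in the first 1 kb and 16.9% in the last. The gene as a whole had 2.47 sites per kb of genomic length (exact Poisson 95% interval 1.46 to 3.90, counting error only).

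A single RBM15 site, at 110340927, scored above 100, at 103. The 2 next were 110342074, the last site of the main stretch, at 48.8 and 110340067, its second site, at 44.3. A run of 3 sites between 110340190 and 110340400 scored 25.4, 26.9 and 11.2, and a pair following the highest site, at 110341035 and 110341141, scored 29.1 and 26.8. Low sites stood among them. The site at 110341282 had a score of 0.063, lower than all but 0.48% of positions in the list, and those at 110341792 and 110341941 scored 1.41 and 1.73. Between these extremes, the sites at 110340673, 110340859 and 110341516 scored 10.7, 17.2 and 9.61. The first site, at 110339667, scored 7.73 and the last, at 110346520, 11.5. The RBM15 median was 14.4, with quartiles of 8.20 and 26.8, and 13 of 18 sites, 72.2%, ranked above the list's median.

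RBM15 had a single pair of sites within 50 nt of each other. In the main stretch 16 gaps had a median of 130 nt and ran from 35 to 400 nt, and 1 of them was 50 nt or less. Across the gene 2 of 18 sites, 11.1% (exact binomial 95% interval 1.38 to 34.7), had a neighbour within 50 nt, namely 110341567 and 110341602. These had scores of 18.1 and 4.83. They form 1 pair, while the interval treats sites as independent. Over all positions the share was 29.7%, which lies inside that interval. The median over the 960 genes with 10 or more sites was 36.4%. The 2 RBM15 positions in both parts of the list were 110340400, with nearly equal scores of 11.2 and 11.0, and the terminal 110346520, at 4.83 in the shorter part and 11.5 in the longer one.

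RBM15B was the most crowded of the 3 genes. Of its 23 sites, 20 lay within 1.77 kb on chromosome 3 (plus strand), from 51392290 to 51394062, at 11.3 sites per kb of that stretch. The stretch ran from 1.00 to 2.78 kb into a gene of 6.62 kb, and the first 1.00 kb held no site. No gene with a site had more in any stretch of up to 2 kb, and LMTK2 and PCNX1 also had 20. The median over the 960 genes with 10 or more sites was 9. This place did not hold under 3 of 4 alternatives. RBM15B had 19 in 2 kb and ranked 2nd with the longer part alone, and 16 and ranked 3rd among positions at or above the median score. With sites within 50 nt joined into 1 it had 13 and ranked 4th, level with other genes, while RBM15 had 14 and ranked 2nd. It kept the top place, shared as before with 2 genes, when the lower score was taken at positions in both parts, which changes no position.

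The highest RBM15B score was 215 at 51392677, followed by 165 at 51393248 and 59.6 at 51393204, the last 2 of these 44 nt apart. The site at 51392677 was itself followed by a falling series, with 40.5 at 51392735, 13.3 at 51392790 and 5.30 at 51392839. The first pair, at 51392290 and 51392313, scored 15.8 and 33.8. Towards the end of the stretch, 51393867 scored 38.3 and 51393942 scored 47.7, and the closing trio of 51394013, 51394036 and 51394062 scored 14.6, 31.4 and 12.9. A middle group of 51393512, 51393627 and 51393657 had nearly equal scores of 15.3, 15.8 and 14.3. The lowest sites in the stretch were 51393447 at 2.11, 51393886 at 3.77, 51392839 at 5.30 and 51392556 at 6.10.

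The other 3 RBM15B sites were scattered over 2.07 kb of the distal gene and scored low, at 5.46 (51395771), 7.80 (51397215) and 2.98 (51397843), all under the list's median. The last lay 65 nt before the gene end. In its distal part RBM15B overlaps DCAF1, a gene on the other strand, and the strand in the list placed the last 2 sites on RBM15B. The RBM15B positions in both parts of the list were 51392313 (33.8 in the shorter part, 9.40 in the longer), 51393029 (16.6 and 0.99) and 51393942 (43.9 and 47.7). The shorter part's score was the higher at the first 2.

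The paralogs RBM15 and RBM15B were alike in broad layout. Each had a compact main stretch that ended 2.70 and 2.78 kb into the gene, a site-free gap after it (4.45 kb in RBM15 and 1.71 kb in RBM15B), and 1 to 3 sites in the remainder. The RBM15B gap of 1.71 kb is close to the 1.5-kb cut, which was chosen after the positions were seen. It is also close to the 1444 nt between the RBM15B sites at 51395771 and 51397215. The paralogs differed at the gene start, where the first 1 kb held 4 RBM15 sites and 0 RBM15B sites. They also differed in spacing. The median gap in the main stretch was 58 nt in RBM15B and 130 nt in RBM15. Of 23 RBM15B sites, 13, or 56.5% (exact binomial 95% interval 34.5 to 76.8), had a neighbour within 50 nt, against 11.1% in RBM15. The share was 29.7% over all positions, with a median of 36.4% over the 960 genes with 10 or more sites. The interval treats sites as independent, which neighbours are not, so the difference in spacing is described and was not tested. Scores of the paralogs overlapped, running from 2.11 to 215 in RBM15B and from 0.063 to 103 in RBM15, with medians of 15.3 and 14.4. Per kb of genomic length RBM15B had 3.47 sites (exact Poisson 95% interval 2.20 to 5.21) and RBM15 2.47 (1.46 to 3.90), and these intervals overlap. SPEN, whose length is mostly free of sites, had 0.474 per kb (0.345 to 0.637).

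In the order of median score SPEN stood first, at percentile 88.0 of the list (quartiles 61.4 and 98.1), then RBM15B at 67.2 (42.6 and 86.0) and RBM15 at 64.6 (48.1 and 80.6). The last 2 do not differ beyond their spread, and SPEN's quartile range overlaps both. SPEN and RBM15 also had sites below percentile 20, and RBM15B had 1, at 14.6. Above percentile 99 there were 7 SPEN sites, 1 RBM15B site and 0 RBM15 sites. Above percentile 90, where 10% of all positions lie by construction, there were 21 of 44 SPEN sites (47.7%), 4 of 23 RBM15B sites (17.4%) and 2 of 18 RBM15 sites (11.1%).

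**Figure D3:**
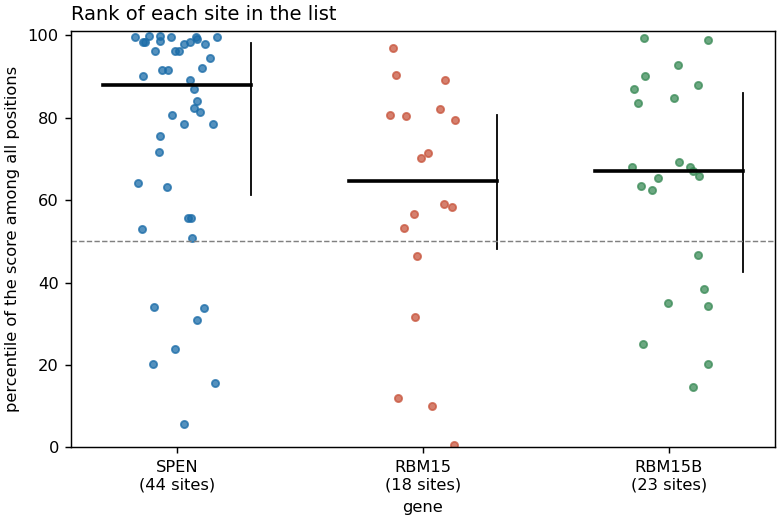
Percentile of each site's score among all 37613 positions (y axis) for SPEN, RBM15 and RBM15B (x axis, points spread sideways at random). Thick bars are medians (88.0, 64.6 and 67.2), thin vertical lines join the quartiles, and the dashed line marks percentile 50. SPEN points crowd near the top. SPEN and RBM15 also have points below percentile 20, and RBM15B has 1.

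The share of positions in both parts of the list was alike in the 3 genes and in the list as a whole. It was 13.6% in SPEN, 11.1% in RBM15 and 13.0% in RBM15B, in all 11 of 85 or 12.9% (exact binomial 95% interval 6.64 to 22.0), against 14.8% of all positions. The shorter part alone held 8 of the 85, or 9.41%, against 8.96% of all positions.

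The gene ends set no close decision on membership. The nearest same-strand site outside RBM15B was 2.16 kb upstream, in MANF, with a score of 24.4. Those nearest to SPEN and RBM15 were 62.8 kb and 106 kb upstream, and downstream of all 3 genes the nearest was over 239 kb away. Extending each gene by 1000 nt on both sides added no site, and the opposite strand within the 3 spans held 0.

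Among all genes SPEN ranked 7th by number of sites, RBM15B 66th and RBM15 142nd of 7661, where the median gene had 3 sites. Genes with 10 or more sites made up 12.5% of those with a site. Within these 960 genes, RBM15B ranked 22nd, RBM15 50th and SPEN 330th by sites per kb of genomic length. By median score SPEN ranked 21st, RBM15B 208th and RBM15 237th. Genomic length includes introns, so the order by density favours genes with few of them.

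**Figure D4:**
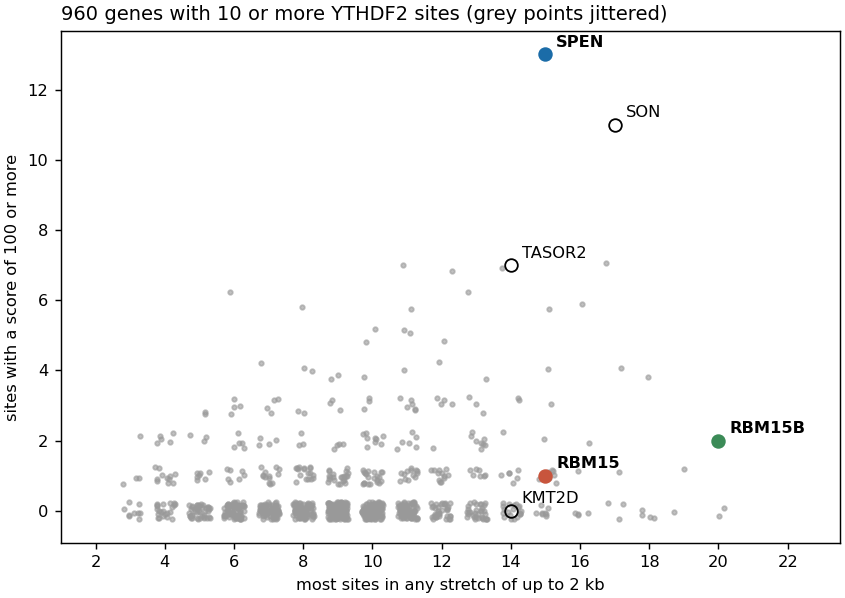
The 960 genes with 10 or more sites, by the most sites in any stretch of up to 2 kb (x axis) and the number of sites with a score of 100 or more (y axis); each grey point is a gene, jittered so that equal values can be seen. SPEN lies at 15 and 13, SON at 11 high-scoring sites, TASOR2 at 7, KMT2D at 0, RBM15 at 15 and 1, and RBM15B furthest right at 20 and 2, a position on the x axis it shares with other genes.

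The genes most like each of the 3 were found over 5 measures taken from this single list: log2 sites, log2 sites per kb, the share of sites in the densest 10 kb, the share with a neighbour within 50 nt and the median percentile of the score, each divided by its standard deviation over the 960 genes. Nearest to SPEN was TASOR2, a distance of 0.762 away against a median of 4.95 over the genes with 10 or more sites. TASOR2 had 45 sites, 0.570 per kb and a median score of 42.8. The kinetochore protein gene CENPF (36 sites, distance 1.33) and SON (41 sites, distance 1.43) followed. Nearest to RBM15 were KCTD12 with 16 sites (0.557), FEM1A with 17 (0.650) and CHPF2 with 16 (0.777), against a median distance of 3.35. Nearest to RBM15B were MCL1, an anti-apoptotic BCL2 family gene, with 19 sites (0.619), RBM12B with 21 (0.849) and ZNF281 with 23 (0.966), against a median of 3.68. The family members were not each other's nearest genes. RBM15B came 237th in order from RBM15, at 2.61, and 84th from SPEN, at 3.26.

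Of 27 other genes in lists on the proteins that work with this family, 24 had a site, 88.9% against 38.4% of the 19958 protein-coding genes. The lists were drawn up with earlier results of these data known, and expression was not used here. The median of those with a site was 7 sites, and 3 of them had more than the 18 of RBM15, namely KMT2D, DIDO1 and PHF3.

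The m6A writer complex had a site in all 8 of its genes, and RBM15B and RBM15 had the most. After them came ZC3H13, a scaffold of the complex, with 14 sites, VIRMA, another scaffold, and WTAP, which tethers the catalytic pair, with 11 each, the adaptor CBLL1 with 6, the catalytic subunit METTL3 with 5 and its partner METTL14 with 4. The 6 genes other than RBM15 and RBM15B had a median of 8.5 sites. Per kb of genomic length RBM15B and RBM15, at 3.47 and 2.47, stood above the next, METTL3 at 0.379 and WTAP at 0.371. Genomic length includes introns, so this order too favours genes with few of them. By median score the order was different, with WTAP at 26.5 and CBLL1 at 19.3 ahead of RBM15B at 15.3 and RBM15 at 14.4, and VIRMA and METTL14 at 3.61 and 3.30. Of the m6A erasers, ALKBH5 had 11 sites and FTO 3.

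The other genes with a SPOC domain split by gene. DIDO1 had 25 sites and PHF3, whose SPOC domain binds RNA polymerase II, had 19, while SPOCD1, a germline factor, had 0. DIDO1 and PHF3 had median scores of 10.5 and 10.9 and 0 sites at 100 or more, against 13 in SPEN. Neither was as compact as RBM15 or RBM15B: their most populated 2 kb held 12 and 9 sites.

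Of 5 corepressor partners of SPEN, 4 had a site. TBL1X had 14, all within 10 kb, NCOR1 9, TBL1XR1 3 and HDAC3, the deacetylase of the complex, 1 with a score of 83.5. GPS2 had 0. All 7 genes of the Notch nuclear complex had a site. KMT2D, a histone H3K4 methyltransferase, had 46, MAML1, a Notch coactivator, 17, the receptors NOTCH2 and NOTCH1 16 and 3, the corepressors CTBP2 and CTBP1 7 and 3, and RBPJ, the DNA-binding protein of the pathway, 4. KMT2D had about as many sites as SPEN, but its median score was 9.36 against 41.0, and 0 of its sites scored 100 or more. Among the mRNA export partners of the RBM15 family, NXT1 had 7 sites, DDX19A 6, the export receptor NXF1 2 and DDX19B 0. DDX19A and DDX19B are near-identical copies, and how reads were shared between them is not stated, so their counts are uncertain.

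**Figure D5:**
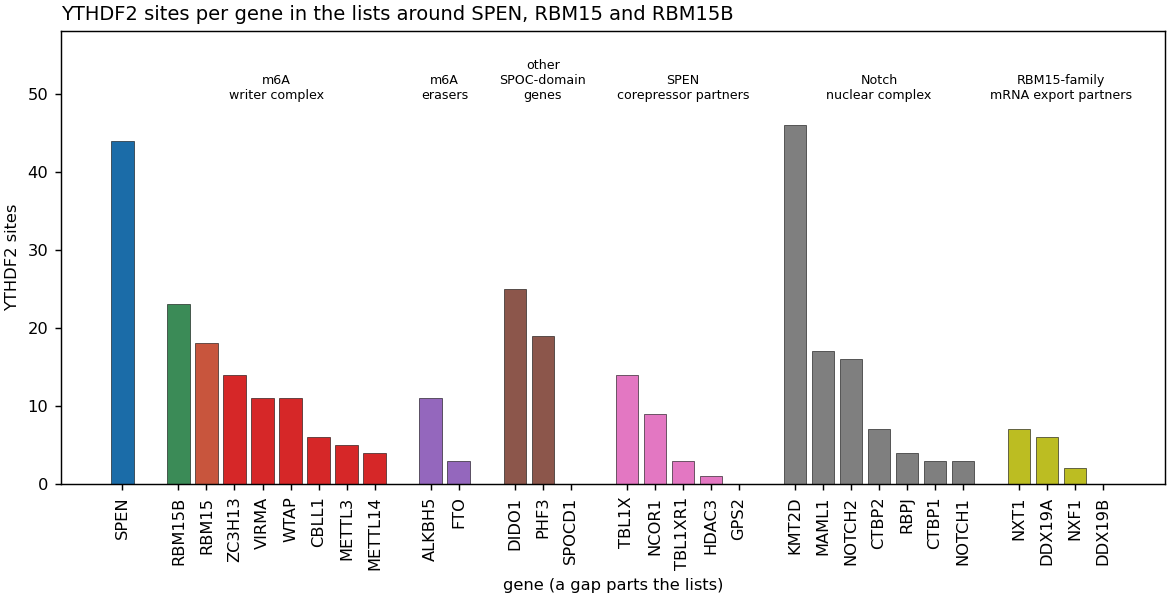
YTHDF2 sites per gene (y axis, from 0) for SPEN and for the genes of 6 lists, parted by gaps on the x axis; bars are counts from the list and have no error. RBM15B and RBM15 lead the writer complex with 23 and 18 sites, KMT2D (46) and SPEN (44) have the most of all genes drawn, and SPOCD1, GPS2 and DDX19B have 0.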

How the data were processed

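Per the submitters' processing notes the build was GRCh38.p12 and the tools included STAR 2.7.3a, UMI-tools 1.0.0, bedtools 2.27.1 and FastQC 0.11.8, with roles unstated. For the site caller, its filters and the combination of the 8 libraries, the methods are not given in the sources used. The deposited file has no header and holds 43178 rows with the authors' score, of unstated scale, and 0 columns of a single sample.

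Rows that share chromosome, position and strand were taken as 1 position with the higher score, and positions are counted from 1. Gene spans came from RefSeq on GRCh38.p14, a later patch of the build; no coordinate of that table is printed. Strand came from the RefSeq promoter table for 15767 of 19958 protein-coding genes and otherwise from the majority of positions in the gene (1222 genes), a rule that gave the table's strand in 6190 of 6197 genes where both exist. Readthrough genes were left out. Positions in exactly 1 gene on their strand, 98.4%, were assigned.

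With no value per library and the positions chosen from the list, no test was run. The members and lists were chosen with earlier results of these data known. Genes named are SPEN, RBM15 and RBM15B, the genes of the lists, some of which are not reported here, and the 3 genes nearest to each by the 5 measures; genes named for their rank in high scores or crowding (SON, LMTK2, PCNX1), neighbours and markers fall outside this. The steps were tested on simulated data. No genome sequence or exon annotation was used, so the planned region and motif results were not made. Python 3.11.15, pandas 2.3.3, numpy 2.4.6 and scipy 1.17.1 were used.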

Additional observations from a re-analysis of the deposited data

How the results depend on the processing

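Of 38 alternative values, 33 stayed close to the main value, which for a count meant within 1.5 times and for a density, share or median within the main value's 95% interval. The other 5 did not, and each uses another length, window, distance or joining of sites. SPEN had 0.655 sites per kb over the length between its outermost sites, against 0.474 over the gene. A window of 5 kb held 56.8% of SPEN sites, against 72.7% in 10 kb. The share of the 85 positions with a neighbour was 42.4% within 50 nt, 18.8% within 25 nt (15.5% of all positions) and 65.9% within 100 nt (49.4%). With sites within 50 nt joined, the most RBM15B sites in 2 kb numbered 13 against 20. Keeping positions at or above the median score left 37, 13 and 16 sites in SPEN, RBM15 and RBM15B, and the longer part of the list alone 39, 16 and 22. Taking the lower score at positions in both parts gave medians of 28.9, 14.1 and 14.3, with SPEN still first. The counts of high scores and of sites in 2 kb, with their alternatives, were added after seeing the data. Some of the 33 alternatives could not have moved and say nothing on stability. A cut at the median score keeps every SPEN site at 100 or more. Taking the lower score removes no position, so the most sites in 2 kb stayed the same in RBM15 and RBM15B. No paired analysis was possible because the list has no values per library. Leaving out a library was not possible for the same reason, and depth per site is unknown.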
